A study of Mus musculus with 2 samples.

Results

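The Notch pathway and the secretory fate factors it controls were followed as 10 genes, chosen by symbol: the ligands Dll1, Dll4 and Jag1, the receptors Notch1 and Notch2, the target Hes1, and the transcription factors Atoh1, Spdef, Gfi1 and Foxa3. All 10 were found among the 31053 genes of the count tables, in both of the study's libraries. Single-cell RNA sequencing (10x Genomics, 3′ chemistry) was run on mouse colon epithelium, with 1 library per group. The GFP sample was taken from mice of genotype c-Kit-creERT2;Rosa26-mTG given 1 intraperitoneal injection of tamoxifen at 1 mg per 20 g of body weight, and held sorted GFP-positive cells, which are the descendants of cells that expressed Kit when tamoxifen was given. The whole epithelium sample was taken from untreated c-Kit-creERT2 mice and was not limited to traced cells. They are called the GFP and whole-epithelium libraries here, after their labels. Both groups carry the Cre allele, and which cells are traced is set by where Kit drives it. The age and number of the animals and the time between tamoxifen and collection are not given in the sources used here. The groups differ in reporter, tamoxifen and sorting as well as in lineage, and these cannot be told apart.

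Notch signalling passes between touching cells: a Delta or Jagged ligand on one cell binds a Notch receptor on its neighbour, the receptor is cut, and its inner part joins the DNA-binding protein Rbpj to switch on targets such as Hes1. In the intestine Hes1 represses Atoh1, so that cells receiving the signal become absorptive, while cells that escape it keep Atoh1, make Dll1 and Dll4, and become secretory. Spdef and Foxa3 act in goblet cell maturation, and Gfi1 acts below Atoh1 and holds back the endocrine programme.

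The GFP library had 13575 barcodes with 150348319 unique molecular identifiers (UMIs, 1 per captured transcript), and the whole-epithelium library had 13967 barcodes with 164185392 UMIs. Of these, 5767 and 7762 cells were kept, with medians of 15821 and 14160 UMIs. The count tables and barcode lists stand crossed in the records, and each table was assigned to the label whose barcode list has as many entries as the table has columns. With the reverse assignment every direction between the libraries would turn round, while those within a library would stay. The tables hold no row for the reporter or for Cre. The summed T and NK marker level was 6.65 CPM in the GFP library and 154.2 CPM in the whole-epithelium library, and that of fibroblast markers 3.14 and 11.96 CPM. The libraries share 60 barcodes, and doublets were not removed. Joint clustering without the 10 genes gave 27 clusters of at least 20 cells, of which 22 drew at least 95% of their cells from 1 library, so even cells of 1 class separated by library. Classes were named from marker genes: 1032 goblet-like cells in the GFP library and 1126 in the whole-epithelium library, 1160 and 1653 stem and transit-amplifying-like (stem/TA-like) cells, 1616 and 2462 colonocyte-like cells, and 107 and 325 enteroendocrine-like cells. Of the 12 goblet markers, 11 were highest in the goblet-like class in both libraries. Since each group is 1 library, nothing is replicated and no difference is tested. Intervals are exact 95% intervals that cover counting error only, and levels are UMIs summed over the cells of a class, given as counts per 1000000 UMIs of those cells (CPM).

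Promoter sequences are shown for 4 of the 9 genes with a RefSeq entry: Dll1, Dll4 and Atoh1, whose transcripts lay together in goblet-like cells, and Spdef, a goblet cell factor that differed from them between the libraries. Each runs from 250 bases before the transcription start to 50 after it, 5′ to 3′ on the gene's own strand (RefSeq, GRCm38.p6). Dll1 lies at chr17:15376883-15377182 (minus strand), Dll4 at chr2:119325534-119325833 (plus), Atoh1 at chr6:64728875-64729174 (plus) and Spdef at chr17:27728902-27729201 (minus). Capitals mark matches, on either strand, to the site bound by Hes proteins (CACGCG), the E-box bound by Atoh1 and related factors (CAGCTG), and the core of the Rbpj site (TGGGAA).
Dll1: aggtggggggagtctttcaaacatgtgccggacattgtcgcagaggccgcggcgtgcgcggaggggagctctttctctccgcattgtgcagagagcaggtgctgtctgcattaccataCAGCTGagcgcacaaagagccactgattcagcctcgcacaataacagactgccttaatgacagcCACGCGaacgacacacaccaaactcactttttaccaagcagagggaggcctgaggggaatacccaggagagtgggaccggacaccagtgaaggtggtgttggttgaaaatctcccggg
Dll4: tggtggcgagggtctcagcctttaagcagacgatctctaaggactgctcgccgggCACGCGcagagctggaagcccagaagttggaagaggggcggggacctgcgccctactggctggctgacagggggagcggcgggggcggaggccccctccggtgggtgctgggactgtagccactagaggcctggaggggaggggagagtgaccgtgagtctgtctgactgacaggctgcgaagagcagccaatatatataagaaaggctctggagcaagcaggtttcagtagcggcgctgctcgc
Atoh1: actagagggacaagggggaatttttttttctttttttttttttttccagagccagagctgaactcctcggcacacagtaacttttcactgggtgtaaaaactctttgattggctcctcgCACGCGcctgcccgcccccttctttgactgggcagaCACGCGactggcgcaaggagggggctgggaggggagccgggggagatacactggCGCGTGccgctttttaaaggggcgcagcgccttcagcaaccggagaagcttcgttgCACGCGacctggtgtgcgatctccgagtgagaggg
Spdef: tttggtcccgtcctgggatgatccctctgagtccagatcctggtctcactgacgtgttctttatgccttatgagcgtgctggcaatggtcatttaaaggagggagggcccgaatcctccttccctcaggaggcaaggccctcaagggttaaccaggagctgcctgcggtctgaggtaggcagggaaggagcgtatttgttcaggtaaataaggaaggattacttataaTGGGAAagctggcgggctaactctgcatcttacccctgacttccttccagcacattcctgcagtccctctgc
The Atoh1 window held 4 matches to CACGCG, at bases 120, 156 and 266 and, on the other strand, at base 210. The Dll1 and Dll4 windows held 1 match to CACGCG each, at bases 183 and 56, and that of Dll1 also held 1 match to CAGCTG, at base 119. The Spdef window held 1 match to TGGGAA, at base 229. Of 32544 promoters of this length, 9.33% held CACGCG at least once and 25 held it 4 or more times, 16.4% held CAGCTG, and 25.4% held TGGGAA. Of the promoters not printed, that of Jag1 held 2 matches to CACGCG and 1 to CAGCTG and that of Notch2 held 1 to CACGCG, and those of Notch1, Gfi1 and Foxa3 held none, so genes highest in goblet-like cells and genes highest elsewhere both had matches. No 2 matches overlapped. These are letters in a window, and no binding was measured.

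Of the 4 classes above, the ligands Dll1 and Dll4 were highest in goblet-like cells in both libraries. Dll1 (ENSMUSG00000014773, chr17:15367354-15376872) had 7.42 CPM (6.43 to 8.51) in goblet-like cells of the GFP library, against 15.6 CPM (14.0 to 17.5) in those of whole epithelium. Its levels were 2.84 and 2.50 CPM in stem/TA-like cells and 1.05 and 2.64 CPM in colonocyte-like cells. The goblet-like class held 56.0% of all Dll1 UMIs in the GFP library and 50.6% in the whole-epithelium library. Dll4 (ENSMUSG00000027314, chr2:119325784-119335962) had 9.20 CPM (8.10 to 10.4) in goblet-like cells of the GFP library, against 16.8 CPM (15.0 to 18.7) in those of whole epithelium. Goblet-like cells held 67.1% and 63.2% of its UMIs. In the GFP library the goblet-like level of either ligand overlapped that of the few enteroendocrine-like cells, which rested on 4 UMIs for each ligand. In the whole-epithelium library it did not overlap that of any other of the 4 classes. It did overlap that of the 43 tuft-like cells there, at 10.6 CPM (3.89 to 23.0, 6 UMIs) for Dll1 and 7.06 CPM (1.92 to 18.1, 4 UMIs) for Dll4. In the GFP library the 45 tuft-like cells also overlapped, at 2.39 CPM (0.289 to 8.63) and 3.59 CPM (0.739 to 10.5). T and NK lymphocyte-like cells had 0 UMIs of either ligand in 58 shallow cells of the GFP library, which allows up to 23.7 CPM. In the 251 such cells of the whole-epithelium library Dll1 had 0.657 CPM (1 UMI) and Dll4 1.97 CPM (0.406 to 5.76, 3 UMIs), so the Dll4 level of stem/TA-like cells, 2.25 CPM, did not stand above it. Dll4 is also an endothelial gene. Of 7 endothelial markers, 4 were at 0 in goblet-like cells of each library, and the others summed to 99 UMIs in the GFP library and 36 UMIs (1.79 CPM) in whole epithelium. Their part in the Dll4 level was not tested. An antisense noncoding RNA, A930024N18Rik, overlaps Dll1 away from its 3′ end, and Gm14207 and A430072P03Rik overlap Dll4 and Gfi1 in the same way but have no row in the count tables. The sources used here do not say whether counting used the strand.

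Jag1 (ENSMUSG00000027276, chr2:137081456-137116644), the third ligand, was arranged differently. It was highest in stem/TA-like cells, at 19.1 CPM (17.6 to 20.7) in the GFP library and 12.7 CPM (11.6 to 13.8) in the whole-epithelium library, against 10.98 and 6.90 CPM in goblet-like cells and 7.13 and 6.27 CPM in colonocyte-like cells. In the whole-epithelium library the stem/TA-like interval overlapped that of enteroendocrine-like cells, which had 9.68 CPM. Goblet-like and stem/TA-like cells stood in the opposite order to that of the Delta ligands: goblet-like over stem/TA-like was -0.80 on the log2 scale for Jag1 in the GFP library and -0.88 in the whole-epithelium library, against 1.39 and 2.65 for Dll1 and 1.89 and 2.90 for Dll4.

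Of the 4 classes, stem/TA-like cells held the largest share of the UMIs of both receptors. Notch1 (ENSMUSG00000026923, chr2:26457903-26516663) had 35.0 CPM (33.0 to 37.2) in stem/TA-like cells of the GFP library and 38.1 CPM (36.3 to 40.1) in those of whole epithelium. Goblet-like cells had 18.3 and 13.5 CPM, and colonocyte-like cells 2.63 and 5.51 CPM. Stem/TA-like cells held 58.0% and 56.9% of its UMIs. Outside the 4 classes, the tuft-like cells had 22.7 CPM (13.7 to 35.5, 19 UMIs) in the GFP library. Their whole-epithelium level was 38.8 CPM (24.3 to 58.8, 22 UMIs), and both intervals overlapped those of stem/TA-like cells. Notch1 is also a lymphocyte gene, and T and NK-like cells had 19.3 CPM (3 UMIs) in the GFP library and 40.7 CPM (62 UMIs) in the whole-epithelium library. The antisense transcripts 0610009E02Rik and Gm13568, which have no row in the count tables, cover the 3′ end of Notch1. Notch2 (ENSMUSG00000027878, chr3:98013527-98150361) was sparse, with 160 and 323 UMIs over all kept cells. It had 3.00 CPM (2.42 to 3.67) and 3.40 CPM (2.86 to 4.02) in stem/TA-like cells, against 1.20 and 1.74 CPM in goblet-like cells and 0.507 and 0.719 CPM in colonocyte-like cells. In whole epithelium the enteroendocrine-like level, 4.15 CPM (1.90 to 7.88), was higher still but overlapped that of stem/TA-like cells. The 28 fibroblast-like cells of the whole-epithelium library had a Notch2 level of 53.9 CPM (23.3 to 106), from 8 UMIs. T and NK-like cells had 6.42 CPM of Notch2 (0.163 to 35.8, 1 UMI) in the GFP library. Their whole-epithelium level was 7.22 CPM (3.61 to 12.9, 11 UMIs), and the stem/TA-like levels do not stand above these.

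Hes1 (ENSMUSG00000022528, chr16:30064384-30067796), the repressor that Notch switches on, was detected in every class. Of the 4 classes it was highest in stem/TA-like cells, with 257.3 CPM (251.7 to 263.0) in the GFP library and 347.3 CPM (341.6 to 353.0) in the whole-epithelium library. Goblet-like cells had 137.1 and 152.6 CPM, enteroendocrine-like cells 89.3 and 142.9 CPM, and colonocyte-like cells 85.2 and 157.8 CPM. In the GFP library goblet-like cells stood above colonocyte-like cells by 0.69 on the log2 scale (0.62 to 0.76), and in the whole-epithelium library the 2 classes overlapped, at -0.05 (-0.11 to 0.01). The clusters left unnamed for want of markers, other than the shallow ones, had 161.9 and 391.8 CPM, and the 45 and 43 tuft-like cells 111.1 and 252.3 CPM. T and NK-like cells had 109.1 CPM (63.6 to 174.7) and 138.6 CPM (120.5 to 158.6). The goblet-like levels lie inside these intervals, so no goblet expression of Hes1 is read from the CPM levels. Whether T and NK-like cells, which also held Notch1 transcript, make Hes1 themselves was not tested. The T and NK-like cells were shallower, at medians of 1938.5 and 4238 UMIs. In whole-epithelium cells thinned to 5000 UMIs, Hes1 was detected in 43.0% of goblet-like cells (39.5% to 46.5%). The share of T and NK-like cells there was 28.6% (19.9% to 38.6%), and these intervals are separate.

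Atoh1 (ENSMUSG00000073043, chr6:64729125-64731245), the master switch of secretory fate, was concentrated in goblet-like cells. It had 98.5 CPM (94.9 to 102.3) in goblet-like cells of the GFP library and 191.8 CPM (185.8 to 197.9) in those of whole epithelium. These cells held 83.7% and 89.2% of all its UMIs. Stem/TA-like cells had 8.35 and 3.99 CPM, colonocyte-like cells 3.79 and 2.03 CPM, and enteroendocrine-like cells 14.7 and 10.6 CPM. In T and NK-like cells, which should lack Atoh1, it had 6.42 CPM (0.163 to 35.8, 1 UMI in 58 cells) in the GFP library and 13.1 CPM (8.02 to 20.3) in the whole-epithelium library. The Atoh1 levels of stem/TA-like and colonocyte-like cells lie below this background in whole epithelium. In the GFP library they lie inside its interval, and 1 UMI is too few to place them. No expression is therefore read from them. Per cell, the shallower T and NK-like cells had 0.0172 and 0.0797 Atoh1 UMIs. Stem/TA-like cells had 0.223 and 0.0986, and colonocyte-like cells 0.0786 and 0.0378. Shares of cells with an Atoh1 UMI were 72.2% and 64.8% in goblet-like cells, at median depths of 23152.5 and 16132.5 UMIs, against 1.72% and 5.98% in T and NK-like cells, at 1938.5 and 4238 UMIs.

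Spdef, Gfi1 and Foxa3 were highest in goblet-like cells too. Spdef (ENSMUSG00000024215, chr17:27714352-27728955) had 215.6 CPM (210.2 to 221.2) there in the GFP library and 196.1 CPM (190.1 to 202.3) in the whole-epithelium library, with 86.7% and 89.5% of its UMIs in the class. Gfi1 (ENSMUSG00000029275, chr5:107716657-107726036) had 15.0 CPM (13.6 to 16.5) and 14.5 CPM (12.9 to 16.3), with 84.1% and 79.3% of its UMIs in the class. In the GFP library the goblet-like Gfi1 interval narrowly overlapped that of enteroendocrine-like cells, at 5.33 CPM (1.45 to 13.65, 4 UMIs). Gfi1 also acts in lymphocytes, and T and NK-like cells had 32.1 CPM (5 UMIs) and 23.6 CPM (36 UMIs). Foxa3 (ENSMUSG00000040891, chr7:19013284-19023538) was broader: goblet-like cells had 104.8 CPM (101.0 to 108.7) and 119.0 CPM (114.3 to 123.9), enteroendocrine-like cells 45.3 and 32.3 CPM, stem/TA-like cells 20.4 and 14.9 CPM, and colonocyte-like cells between 7.07 and 9.02 CPM and between 4.34 and 5.66 CPM. Goblet-like over stem/TA-like was 2.36 and 3.00 on the log2 scale for Foxa3, against 4.31 and 5.68 for Spdef. In T and NK-like cells Spdef had 32.1 and 7.22 CPM and Foxa3 38.5 and 7.88 CPM. In all, 6 of the 10 genes (Dll1, Dll4, Atoh1, Spdef, Gfi1 and Foxa3) were highest in goblet-like cells among the 4 classes in both libraries, and Jag1, Notch1 and Hes1 were highest in stem/TA-like cells in both.

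**Figure D1:**
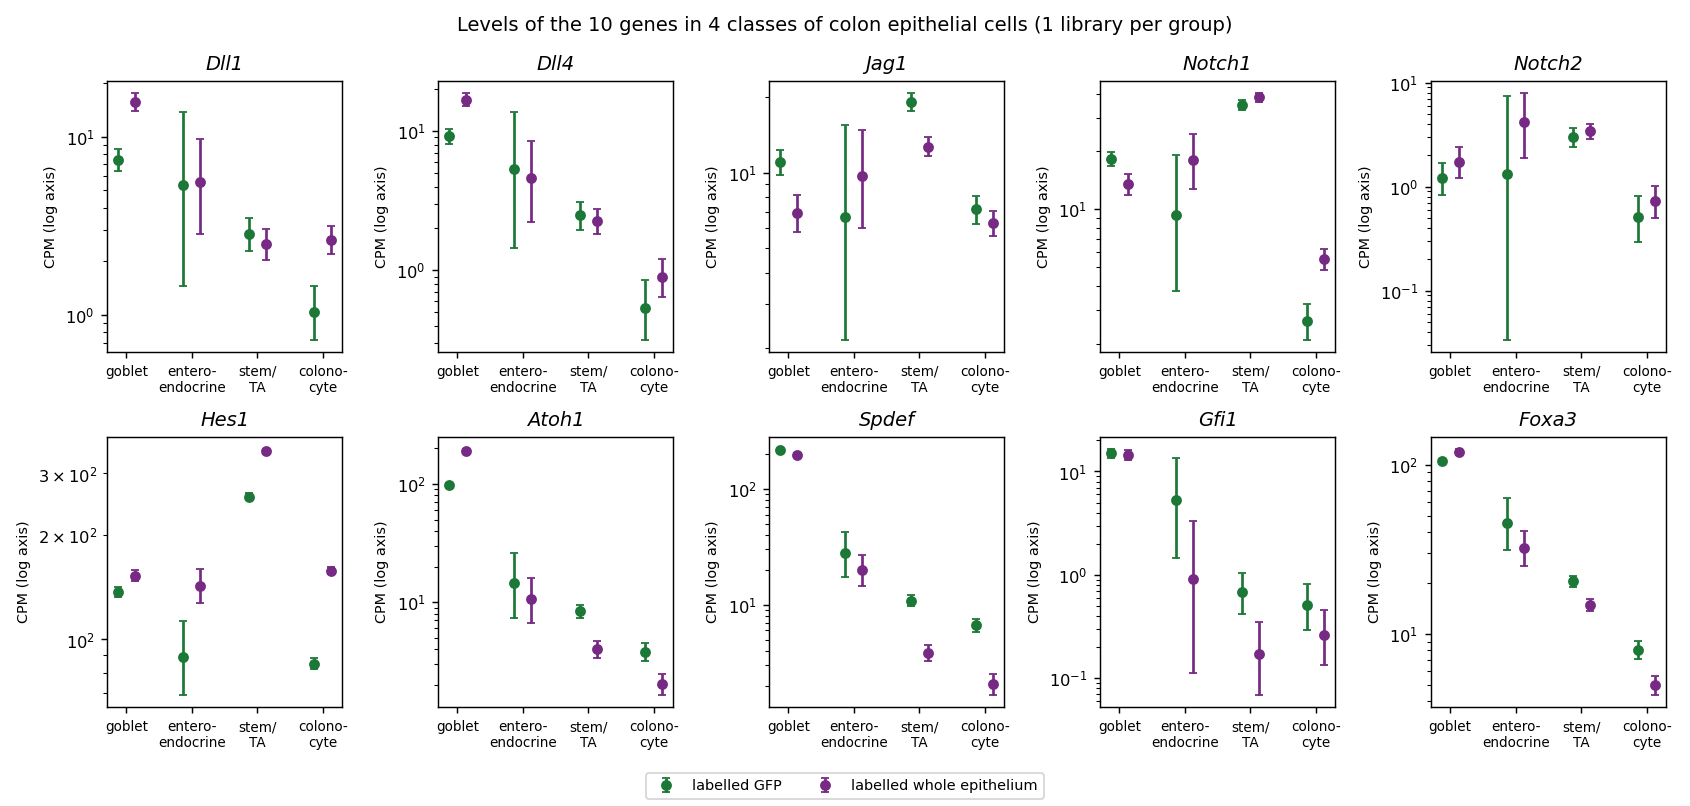
Level of each gene (CPM, log axes that differ between panels) in goblet-like, enteroendocrine-like, stem/TA-like and colonocyte-like cells of the GFP (green, left of each pair) and whole-epithelium (purple) libraries. Points are class sums and bars exact 95% Poisson intervals; Atoh1, Spdef, Gfi1, Foxa3, Dll1 and Dll4 are highest in goblet-like cells, while Notch1, Hes1 and Jag1 are highest in stem/TA-like cells.

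Within the goblet-like class of the whole-epithelium library, the genes did not keep together. All but 14 cells of this class came from 4 clusters, called here by number. In cluster 20 (257 cells, led by Mptx1, Sval1 and Reg4) the Dll1 level was 28.4 CPM (24.3 to 33.0) and that of Atoh1 257.6 CPM, while Spdef was at 91.5 CPM (83.9 to 99.6). In cluster 10 (488 cells) the Dll1 level was 11.3 CPM (9.27 to 13.6) and that of Atoh1 202.8 CPM, while Spdef was at 317.5 CPM. Spdef was itself among the leading genes of cluster 10, although it was left out of the clustering. Of the 4 clusters, cluster 20 was thus highest in Dll1 and Atoh1, and cluster 10 in Spdef. Cluster 19 (298 cells, led by Clca1 and Zg16, shallow at a median of 4985 UMIs) had 92.1 CPM of Atoh1, 68.4 CPM of Spdef and 194.2 CPM of Hes1. Cluster 25 (69 cells, led by nuclear RNAs) had 21.7 CPM of Atoh1 and 208.8 CPM of Hes1. The goblet-like cells of the GFP library formed 1 cluster, with 98.5 CPM of Atoh1 and 7.42 CPM of Dll1. That Atoh1 level lay below those of clusters 10 and 20 and above that of cluster 25, and overlapped that of cluster 19.

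Between the libraries, a gene was called higher or lower in GFP when it differed by more than 1.5-fold with an interval that left out 0. Over all kept cells 4 of the 10 genes were called, 2 higher and 2 lower, against 21.2% of the 15223 genes tested, 6.63% higher and 14.6% lower. Spdef was higher, at 63.0 CPM in the GFP library and 32.0 CPM in the whole-epithelium library (log2 ratio 0.98, 0.92 to 1.03). Gfi1 was higher, at 4.52 and 2.67 CPM (0.76, 0.56 to 0.96). Hes1 was lower, at 157.7 and 251.0 CPM (-0.67, -0.70 to -0.64), and Notch2 was lower, at 1.47 and 2.34 CPM (-0.67, -0.95 to -0.39). The other 6 were not called: Jag1 at 0.52, Foxa3 at 0.47, Atoh1 at -0.07, Dll4 at -0.16, Notch1 at -0.20 and Dll1 at -0.43. None of the 10 passed a 2-fold threshold. Changes in the number of cells of a class and in RNA per cell cannot be told apart in such sums.

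In goblet-like cells the calls fell on all 3 ligands and Atoh1, and on none of Spdef, Gfi1 and Foxa3. These 4 of 10 genes stand against 15.8% of 12730 genes tested, with 1 higher, against 6.06%, and 3 lower, against 9.75%. Dll1 was lower in the GFP library, at a log2 ratio of -1.08 (-1.34 to -0.82), Dll4 at -0.87 (-1.11 to -0.63) and Atoh1 at -0.96 (-1.03 to -0.89), and Jag1 was higher at 0.67 (0.38 to 0.97). The Jag1 levels of goblet-like cells lie inside the T and NK-like intervals in both libraries, so no difference in expression is read from that ratio. Spdef at 0.14 (0.08 to 0.20), Gfi1 at 0.05 (-0.17 to 0.27), Foxa3 at -0.18 (-0.26 to -0.11), Hes1 at -0.15 (-0.22 to -0.09) and Notch1 at 0.44 (0.22 to 0.66) were not called. Spdef, which was called higher over all kept cells, was thus not called within the class that holds most of it. The makeup of the class moved with these values, as 1 cluster in one library and mainly 4 in the other. Without clusters 19 and 25, an alternative chosen after seeing the data, Atoh1 stood at -1.18. With equal weight per cell Dll4 stood at -0.36, which ends its call, Atoh1 at -0.59, at the edge of the threshold, and Dll1 at -0.82. Counted as UMIs per cell, with the deeper cells of the GFP library, Dll1 had 0.198 and 0.280, Dll4 0.245 and 0.300, Atoh1 2.63 and 3.43, and Spdef 5.75 and 3.51. The cycling markers moved too, with 8 of 14 called higher in goblet-like cells of the GFP library, and so did the goblet markers, with 6 of 12 called higher and a summed level of 84254 and 41549.8 CPM. Their part in the result was not tested.

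In stem/TA-like cells 4 of the 10 genes were called, against 15.9% of 12995 genes. All 4 were higher, against 8.46%, and 0 lower, against 7.44%, but at a clustering resolution of 0.5 there were 2 higher (Spdef and Gfi1) and 2 lower (Hes1 at -0.66 and Notch2 at -0.71), while Jag1 at 0.54 and Atoh1 at 0.50 kept their sign and lost their call. The share of all genes called at that resolution is not given here. The cells compared were mainly clusters 5 and 17 in the GFP library and clusters 4 (led by haemoglobin genes), 13 and 15 in whole epithelium. Cluster 17 (348 cells) shares the leading genes Trf, Fut9, Adh1, Nxpe2 and Foxq1 with cluster 6 of whole epithelium (766 cells). Cluster 6 was left unnamed and is not in this comparison. The deeper unnamed cells of whole epithelium had 391.8 CPM of Hes1, 2.80 of Atoh1 and 1.88 of Spdef. The effect of leaving them out was not tested. Jag1 stood at 0.59 (0.42 to 0.76), Atoh1 at 1.07 (0.78 to 1.36), Spdef between 1.23 and 1.79 and Gfi1 at 1.98 (0.69 to 3.46, from 21 and 7 UMIs). Hes1, at -0.43 (-0.47 to -0.39), and Notch1, at -0.12 (-0.24 to -0.01), were not called. In colonocyte-like cells 6 of 10 were called, against 20.4% of 12415 genes, 3 higher, against 6.76%, and 3 lower, against 13.6%. They were mainly clusters 8, 9 and 16 in the GFP library and clusters 3, 7, 11 and 14 in whole epithelium. Hes1 was lower at -0.89 (-0.95 to -0.83), Notch1 at -1.07 (-1.44 to -0.71) and Dll1 at -1.34 (-1.92 to -0.78), while Atoh1 stood at 0.90, Spdef at 1.69 and Foxa3 at 0.69. The median of well-covered genes in this class was itself -0.13. In enteroendocrine-like cells 1 of the 6 genes with enough UMIs was called, against 13.7% of 9817 genes, with 6.59% higher and 7.15% lower: Hes1 was lower at -0.68.

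The higher Atoh1 and Spdef of stem/TA-like and colonocyte-like cells came with goblet transcripts in general. Of 12 goblet markers, 11 were called higher in the GFP library in stem/TA-like cells (median log2 ratio 1.89) and 11 in colonocyte-like cells (2.18). The T and NK-like cells carried a summed goblet-marker level of 23970.3 CPM in the GFP library and 2738 CPM in the whole-epithelium library, which are transcripts that lymphocytes do not make. In CPM, Atoh1 and Spdef in these 2 classes lie at or below the lymphocyte level in 1 library or both. The T and NK-like cells are shallower, so this level cannot place the 2 genes above or below background. Per cell, T and NK-like cells had 0.0862 and 0.0438 Spdef UMIs. Stem/TA-like cells had 0.290 and 0.0944, and colonocyte-like cells 0.137 and 0.0382. The Atoh1 and Spdef ratios are given as values, and no difference in expression is read from them. The same holds for Foxa3 in colonocyte-like cells, which lies below 38.5 CPM (14.1 to 83.8) in the GFP library. Hes1 in colonocyte-like cells, at 85.2 and 157.8 CPM, lies inside the T and NK-like intervals of both libraries. So do Hes1 in enteroendocrine-like and Dll1 in colonocyte-like cells, and no difference is read there either. Whether the Hes1 of T and NK-like cells is background or their own was not tested. Gfi1 in stem/TA-like and Notch1 in colonocyte-like cells also lie below, but both are lymphocyte genes, so that level is no background for them.

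**Figure D2:**
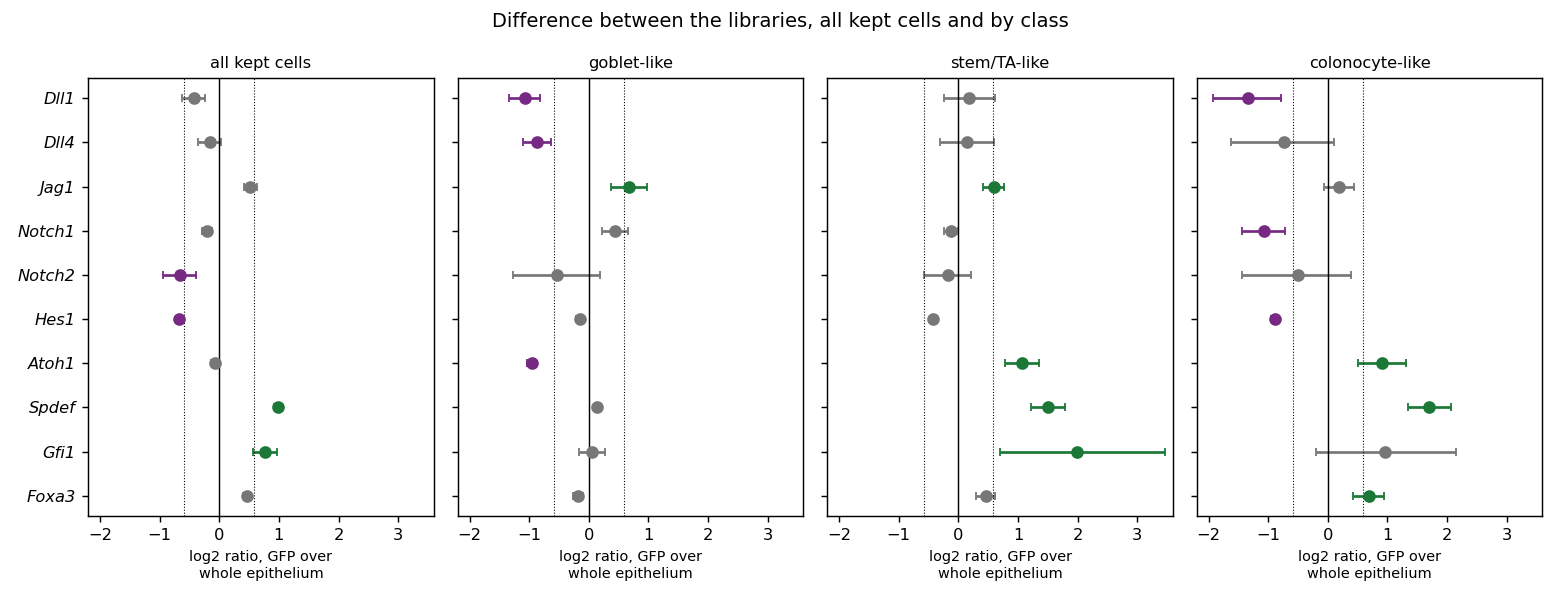
Log2 ratio of the GFP library over the whole-epithelium library for the 10 genes, over all kept cells and in 3 classes, with exact 95% intervals. Dotted lines mark 1.5-fold, green points were called higher in GFP, purple points lower, and grey points were not called; in goblet-like cells Dll1, Dll4 and Atoh1 lie left of the line and Spdef, Gfi1 and Foxa3 near 0.

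Co-detection in single cells depends on depth, so each cell was thinned to 5000 UMIs, which kept 3963 cells of the GFP library and 5360 of the whole-epithelium library and left out 1804 and 2402. Atoh1 was then detected in 451 and 517 cells. The Delta ligands were detected in a larger share of cells with Atoh1 than of cells without it. A UMI of Dll1 or Dll4 was present in 11.8% of Atoh1-positive cells of the GFP library (53 of 451, 8.93% to 15.1%), against 1.82% of those without Atoh1. Whole epithelium had it in 14.9% (77 of 517, 11.9% to 18.3%), against 2.75%. Goblet-like cells hold most UMIs of both. Within goblet-like cells the ligand shares were 12.7% (9.48% to 16.6%) with Atoh1 and 5.28% (3.51% to 7.59%) without in the GFP library, and 16.1% and 12.2%, with overlapping intervals, in the whole-epithelium library. A Dll4 UMI was present in 4 of 64 Dll1-positive cells of the GFP library (6.25%, 1.73% to 15.2%), against 1.36% of cells without Dll1, and in 9 of 122 of the whole-epithelium library (7.38%, 3.43% to 13.5%), against 1.68%. Within goblet-like cells the intervals with and without Dll1 overlapped, at 10.5% and 4.197% in the GFP library and 8.06% and 7.05% in whole epithelium.

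Hes1 and Atoh1 UMIs were also found in the same barcodes. In 98 T and NK-like cells of whole epithelium at this depth, Hes1 was detected in 28.6% (19.9% to 38.6%) and Atoh1 in 7.14% (2.92% to 14.2%), and doublets were not removed, so a pair of UMIs in 1 barcode is not read as co-expression. In the GFP library 36.1% of Atoh1-positive cells had a Hes1 UMI (163 of 451, 31.7% to 40.8%), against 40.7% of cells without Atoh1 (39.1% to 42.3%), and these intervals overlap. In the whole-epithelium library the share was 38.1% (197 of 517, 33.9% to 42.4%), against 50.1% (48.7% to 51.5%). Within goblet-like cells the shares were 33.8% (28.9% to 38.9%) with Atoh1 and 41.1% (36.8% to 45.5%) without in the GFP library, again overlapping. The whole-epithelium shares were 34.8% (30.2% to 39.5%) and 52.3% (47.1% to 57.4%). The goblet-like class of that library mixes clusters that differ in Atoh1 and Hes1, as given above. Their part in the separation was not tested. Sorted by Atoh1 UMIs per goblet-like cell, with 0, 1, 2 and 3 or more, the Hes1 share was 41.1%, 35.1%, 33.7% and 27.3% in the GFP library, and 52.3%, 36.4%, 31.5% and 35.0% in the whole-epithelium library. The steps above 0 overlap one another. Without thinning, the order turned: 70.7% of Atoh1-positive cells and 54.9% of the others had Hes1 in the GFP library, and 68.4% and 60.1% in the whole-epithelium library. Goblet-like cells of the GFP library had a median of 23152.5 UMIs, against 15821 for all its kept cells, and those of whole epithelium 16132.5, against 14160.

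Spdef and Foxa3 were detected in a larger share of goblet-like cells with Atoh1 than without. Spdef was detected in 67.3% of goblet-like cells with Atoh1 and 57.9% without in the GFP library, and in 58.9% and 43.5% in the whole-epithelium library. Foxa3 was detected in 50.7% and 39.5% in the GFP library, and in 54.6% and 34.2% in whole epithelium. These intervals were separate except for Spdef in the GFP library (62.2% to 72.1% and 53.5% to 62.2%), which touch. The part of the whole-epithelium clusters, which differ in Atoh1 and Spdef, was not tested. Notch1 ran the other way, at 6.09% with Atoh1 and 9.78% without in the GFP library, and 3.07% and 6.37% in the whole-epithelium library, with intervals that overlap in both libraries.

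**Figure D3:**
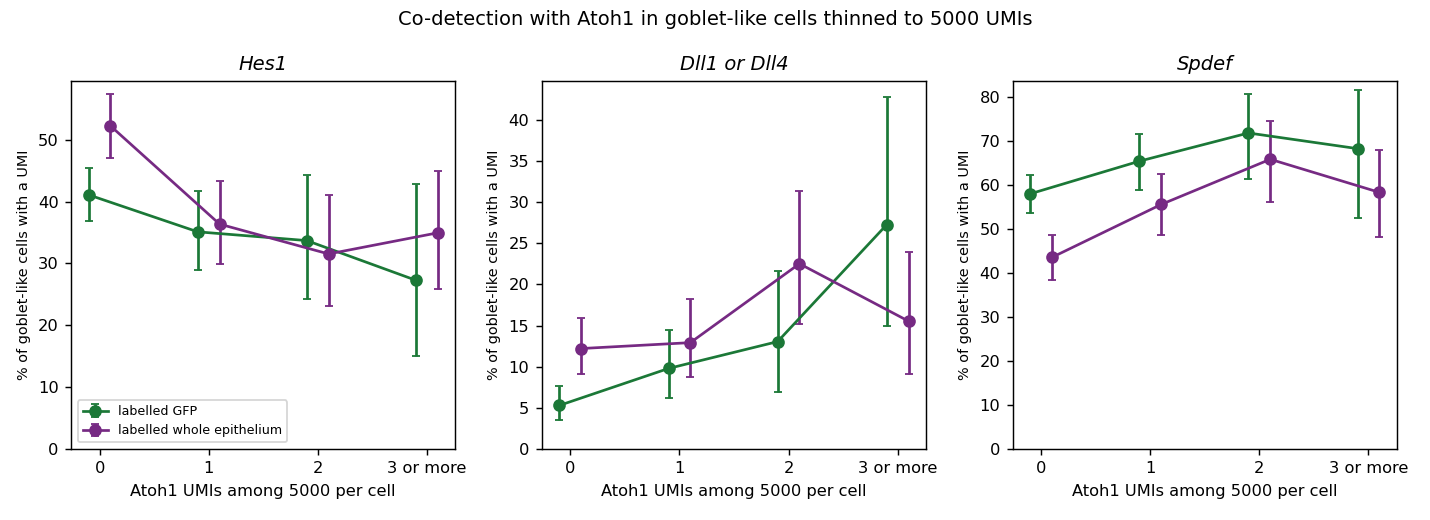
Share of goblet-like cells with a UMI of Hes1, of Dll1 or Dll4, and of Spdef, by the number of Atoh1 UMIs among 5000 per cell, in the GFP (green) and whole-epithelium (purple) libraries, with exact 95% binomial intervals. The Hes1 share is highest in cells without Atoh1 in both libraries, at 41.1% and 52.3%, and the ligand share from 0 to 3 or more Atoh1 UMIs is 5.28%, 9.78%, 13.04% and 27.3% in the GFP library and 12.2%, 12.9%, 22.5% and 15.5%, with no steady rise, in whole epithelium.

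Cells with Atoh1, a Delta ligand and Hes1 together numbered 12 in the GFP library and 29 in the whole-epithelium library, of which 11 and 25 were goblet-like. Cells with Atoh1 and a ligand but no Hes1 UMI numbered 41 and 48. Before thinning, 248 and 252 cells held all 3 transcripts, and 26.6% and 13.5% of them lay among the 5% of cells with the most UMIs in their library. The share of Atoh1-positive cells there was 12.2% and 7.36%. Without those cells the Hes1 share of Atoh1-positive cells at 5000 UMIs was 34.9% and 37.4%. Notch1 and Hes1 were co-detected across the epithelium, with Hes1 in 49.7% of Notch1-positive cells and 39.4% of the rest in the GFP library, and in 62.6% and 47.7% in the whole-epithelium library. Within stem/TA-like cells the shares were 57.1% and 61.2% in the GFP library and 69.9% and 65.5% in the whole-epithelium library, with overlapping intervals.

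Goblet-like barcodes with cycling transcripts carried a different mix. Cycling was read as at least 5 UMIs of 14 cycling markers among 5000, a limit set after the data were seen, which held for 340 of 872 goblet-like cells in the GFP library and 244 of 800 in the whole-epithelium library. Notch1 had 27.6 CPM (20.3 to 36.8) in cycling and 11.3 CPM (7.61 to 16.1) in other goblet-like cells of the GFP library, and 24.6 CPM (16.6 to 35.1) and 2.88 CPM (1.24 to 5.67) in those of whole epithelium. Hes1 was higher in cycling cells, at 148.2 against 97.7 CPM and at 201.6 against 117.3 CPM. Atoh1 was lower, at 99.4 against 154.5 CPM and at 119.7 against 238.5 CPM. Spdef was lower, at 180.0 against 295.9 CPM and at 126.2 against 250.0 CPM, and Foxa3 at 95.9 against 148.5 CPM and at 77.9 against 157.6 CPM. For Hes1, Notch1, Atoh1, Spdef and Foxa3 the intervals of cycling and other cells did not overlap in either library. Doublets with stem/TA-like cells were not removed, and the whole-epithelium class mixes clusters that differ in Atoh1 and Hes1. The part of either in these differences was not tested. The intervals overlapped for the Delta ligands, with Dll1 at 8.82 and 9.40 CPM in the GFP library and 17.2 and 18.3 CPM in the whole-epithelium library. In stem/TA-like cells the intervals of cycling and other cells overlapped for Hes1 and Notch1, with Hes1 at 255.7 and 270.1 CPM in the GFP library and 360.8 and 364.1 CPM in the whole-epithelium library.

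**Figure D4:**
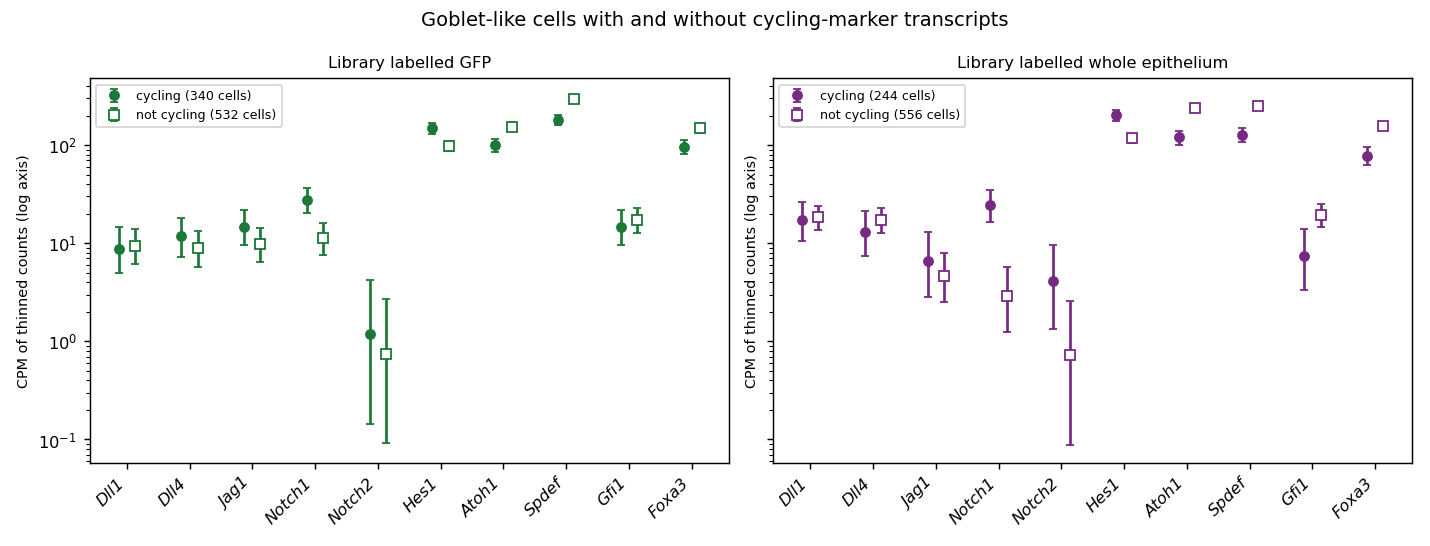
Levels of the 10 genes (CPM of counts thinned to 5000 UMIs per cell, log axis) in goblet-like cells with at least 5 UMIs of the cycling markers (filled circles) and with fewer (open squares), in the GFP (left) and whole-epithelium (right) libraries, with exact 95% Poisson intervals. Notch1 and Hes1 are higher and Atoh1, Spdef and Foxa3 lower in the cycling cells of both libraries.

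The rest of the pathway was described from fixed lists of 106 further genes, of which 102 had enough UMIs. Over all kept cells 7 were called higher and 18 lower in the GFP library, against 6.63% and 14.6% of all genes, and the median log2 ratio was -0.10, against -0.03 for all genes. Of 18 genes of the nuclear complex 1 was called, the coactivator Maml2, lower at -1.81 from 9 and 40 UMIs, while Rbpj stood at -0.33 and was not. Of 14 genes of receptor processing 2 were called lower, Lfng, a sugar transferase that tunes the receptor's response to its ligands, at -0.64, and the related Mfng at -1.51. Lfng had 5.75 CPM in goblet-like cells of the GFP library and 13.3 CPM in those of whole epithelium. Of the other ligands and receptors, Notch4 was higher at 0.98 and Jag2 at 0.67, and Dlk1 was lower at -3.48, from 5 and 71 UMIs. Neurl1a, a ubiquitin ligase that acts on Notch ligands, was higher at 2.26, and 141 of its 189 UMIs in the GFP library and 25 of its 50 in the whole-epithelium library lay in goblet-like cells. Dtx1, a regulator of Notch in lymphocytes, was lower at -3.82, from 6 and 108 UMIs, of which 5 and 101 lay in T and NK-like cells, and this class held 58 cells in the GFP library and 251 in the whole-epithelium library. Dtx3 was lower at -0.94.

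Among other targets Olfm4 was called higher, from 18 and 2 UMIs, and Hes7, at -1.07, and Id2 were called lower. Id2, an inhibitor of basic helix-loop-helix factors, was lower at -0.78, with 34.3 CPM in stem/TA-like cells of the GFP library and 67.7 CPM in those of whole epithelium. Nrarp, which dampens Notch as part of its own feedback, stood at -0.32 and was highest of the 4 classes in stem/TA-like cells, at 29.0 and 38.6 CPM, like Hes1. Hes6, a relative that opposes Hes1, stood at -0.05 and was highest in goblet-like cells, at 89.5 and 117.1 CPM. Of 15 goblet and secretory factors 1 was called higher, Bhlha15 at 0.77, and 1 lower, Insm1 at -0.69. Most Insm1 UMIs (186 of 242 and 385 of 496) lay in enteroendocrine-like cells, where its level was higher in the GFP library, at 247.8 CPM (213.5 to 286.1) and 177.5 CPM (160.2 to 196.1). Of 15 endocrine and tuft factors 8 were called lower and 1 higher (Spib, at 0.99), with a median of -0.77. Neurog3, the switch to endocrine fate that acts below Atoh1, was lower at -1.77, Fev at -1.61 and Isl1 at -1.46. Enteroendocrine-like cells numbered 107 in the GFP library and 325 in the whole-epithelium library, so the Fev and Isl1 values cannot be told apart from the number of such cells. For Neurog3 the class held only 15 of 33 UMIs in the GFP library and 7 of 143 in whole epithelium. Within enteroendocrine-like cells Fev had 70.6 CPM (52.9 to 92.4) and 102.3 CPM (89.3 to 116.7), and Isl1 62.6 CPM (46.0 to 83.3) and 106.0 CPM (92.8 to 120.6). Neurog3 ran the other way there, at 20.0 CPM (11.2 to 33.0, 15 UMIs) and 3.23 CPM (1.30 to 6.65, 7 UMIs), while most of its UMIs in whole epithelium lay in stem/TA-like cells, at 0.548 CPM in the GFP library and 1.86 CPM in whole epithelium. Pou2f3, the tuft cell factor, had 36 and 30 UMIs and was not called, at 0.61 (-0.13 to 1.36). Of 11 absorptive factors 2 were called, Gata4 higher at 2.15 and Maf lower at -1.80, and Maf had 8.69 CPM in colonocyte-like cells of the GFP library and 30.7 CPM in those of whole epithelium.

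The genes with a class pattern most like that of 3 members were ranked among 12002 genes by Pearson correlation of log2(CPM + 1) over the 17 class sums of both libraries, which share depth and free RNA. Nearest to Atoh1 were Ccl6 (0.94), Bcas1 (0.94), Ramp1 (0.92), Nov (0.91) and Cma1 (0.91), of which Bcas1 and Ramp1 were among the markers used for naming. Nearest to Dll1 was Dll4 (0.93), before Dusp23 (0.91), Edem2 (0.90), Fgfr3 (0.88) and Lyplal1 (0.86). Nearest to Hes1 were Csrp2 (0.89), Phb (0.88), Tomm22 (0.88), Sap18 (0.86) and Ahcy (0.86).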

How the data were processed

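Per the submitters' processing notes the authors ran Cell Ranger 2.1.1 on build mm10, while the deposited matrix headers name version 3.1.0. The deposited values are raw counts of UMIs per gene and barcode, as the authors left them. Each count table was given to the label whose barcode list has its number of columns. Barcodes under 500 genes or under 1000 UMIs, or over 25% mitochondrial, were left out. Both libraries were clustered jointly (scanpy 1.11.5, leidenalg 0.10.2, resolution 1.0) without the 10 genes and the listed genes, and classes were named from fixed markers by a scoring rule settled later. No doublet caller was run. Genes with at least 20 UMIs over both libraries were compared by log2 ratio of CPM with an exact conditional binomial interval, without any test. Levels have exact Poisson and shares exact Clopper-Pearson intervals. The members, lists and marker genes were chosen with earlier results of these data known. Named beside the members are listed genes that were called and had at least 100 UMIs, at most 4 a list, plus Rbpj, Hes6, Nrarp, Neurog3 and Pou2f3, and the 5 genes most like Atoh1, Hes1 and Dll1. A gene that this rule also names is not reported here. Mfng, Maml2, Dlk1, Olfm4, Hes7 and Spib were named after their values were seen. Alternatives covered the cell filter, weighting, scaling, threshold, clustering and thinning depth.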

Additional observations from a re-analysis of the deposited data

Results flagged for a closer look

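The Atoh1 ratio of the GFP library over the whole-epithelium library differed in sign between classes. It was 1.07 on the log2 scale in stem/TA-like cells and -0.96 in goblet-like cells, a difference of 2.03. It was 0.90 in colonocyte-like cells, a difference of 1.86 from goblet-like cells. Neither difference was tested, since each group has 1 library. In CPM, the Atoh1 levels of stem/TA-like and colonocyte-like cells are no higher than in T and NK-like cells of 1 or both libraries. The T and NK-like cells are shallower, so their level cannot place the others above or below background.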

How the results depend on the processing

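With a 2-fold threshold the calls were 0 over all kept cells, 1 in goblet-like cells, 3 in colonocyte-like cells and 14 among the listed genes, against 4, 4, 6 and 25. With the members and listed genes allowed in clustering, stem/TA-like calls numbered 2 in place of 4. At clustering resolution 0.5 the stem/TA-like calls were split, with 2 higher and 2 lower, where all 4 were higher at resolution 1.0, with other genes called lower and no called gene changing sign. The Hes1 share of Atoh1-positive cells moved with depth. In the GFP library it was 14.9% at 2000 UMIs, 56.0% at 10000, 70.7% without thinning and 57.2% unthinned with at least 2 UMIs of each gene. In the whole-epithelium library it was 20.2%, 56.2%, 68.4% and 50.6%. At 2000, 5000 and 10000 UMIs it lay below the share of cells without Atoh1 in both libraries, and in both unthinned settings above it. The ligand share moved to 5.80%, 15.5% and 27.7% in the GFP library at 2000 UMIs, 10000 UMIs and without thinning. In the whole-epithelium library it moved to 6.27%, 26.1% and 31.8%, and to 19.8% with at least 2 UMIs. It lay above the share of cells without Atoh1 at these depths and at 5000 UMIs. The 6 genes highest in goblet-like cells were 6 under the 4 other clusterings too. Of the other values recomputed, 76 moved past their interval and 204 did not, and no called value changed sign. No paired analysis was possible because each group has 1 library. The cause of these shifts was not tested. Detection is limited by UMIs per cell: in whole epithelium Jag1 was detected in 3.62% of cells at 5000 UMIs and 12.2% without thinning, and Dll1 in 2.28% and 5.87%.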
